A study of Mus musculus with 18 samples.

Results

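The 68 genes described here were long intergenic noncoding RNAs (lincRNAs) with good counts in mouse mesenchymal cells. They were the genes that the deposited table types as lincRNA and that held at least 1000 counts summed over 18 libraries, out of 5559 genes of that type (1816 with any count) and 54532 genes in all. A list of 7 imprinted lincRNAs was left out by rule, which removed 1 gene over the minimum, H19. Members were thus chosen by their summed counts, and their levels are given as a description. Just inside the minimum lay 2310001H17Rik with 1025 counts and C130083M11Rik with 1001, and just outside it Gm26526 with 966 and 3110039M20Rik with 964. Without the group in which each was highest, 22 of the 68 members would have fallen below 1000 counts, so those 22 entered through 1 group. Of the members named below, Gm17501 and AL805899.1 entered through WT stimulated libraries. Through WT uninduced libraries came 2310001H17Rik, 2810414N06Rik, D130017N08Rik and Gm47469. Gm39323 came through clone 1 uninduced libraries, and Gm43672 and C130083M11Rik through clone 1 stimulated ones. Through clone 2 uninduced libraries came Gm3716, 3300005D01Rik, D5Ertd605e, 1300002E11Rik and Gm46430. For these members a difference from that group is drawn partly from the values that admitted them, and it is given as a description.

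The cells were CH310T1/2 (10T1/2), a mouse mesenchymal line that can take on fibroblast-like or fat-storing fates. They were wild type (WT) or 1 of 2 FOXS1 knockout (KO) lines, clone 1 and clone 2, each grown from a single cell after editing with Cas9 and pairs of guides, so each KO line is 1 clone. Each line was left uninduced or was given TGF-β1 (1 nM, 12 h) followed by the adipogenic mixture DMII (dexamethasone, isobutylmethylxanthine, insulin and indomethacin; 48 h), called stimulated below, and each of the 6 groups had 3 libraries of poly(A)-selected RNA. The comparisons asked how the lincRNAs responded to stimulation, how each clone differed from WT, and whether the response itself differed. No label gives the libraries of a group as separate cultures, so p-values measure only the spread between libraries, which may be technical. TGF-β1 and DMII were never given apart.

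lincRNAs are transcripts that lie between protein-coding genes and carry no long reading frame. Some work in the nucleus: Malat1 sits in nuclear speckles where splicing factors gather, Neat1 is the scaffold of paraspeckles, and Xist coats and silences an X chromosome in female cells. Others host small nucleolar RNAs (snoRNAs), which guide modification of ribosomal RNA, hold microRNA precursors or binding sites, or start beside a coding gene and share its promoter region.

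Foxs1, the edited gene, which encodes a forkhead transcription factor, had 1.81, 3.25 and 1.64 CPM (counts scaled per 1e6 library counts) in WT uninduced and 3.13, 2.55 and 1.85 CPM in WT stimulated libraries. It had 26.7, 27.1 and 23.4 and 53.6, 53 and 56.8 CPM in uninduced and stimulated libraries labelled clone 1, and 21.1, 22.9 and 23.9 and 38.8, 38 and 42.8 CPM in those labelled clone 2. Every library labelled KO was thus above every WT library of its state in Foxs1 RNA, with log2 differences of 3.55 and 3.36 uninduced and 4.44 and 3.99 stimulated. The study checked the loss of the protein by western blot, which RNA counts do not report, and every direction given below for a clone rests on the library labels. Library totals ran from 15576685 to 42005596 counts. All 10 mesenchymal markers had counts in every group, but in clone 2 only 9 reached a mean of 1 CPM. There Thy1 had means of 0.62 CPM uninduced and 0.34 CPM stimulated, against 59.7 and 49.0 CPM in WT. The 5 adipocyte markers summed to at most 4.64 CPM except in stimulated libraries labelled clone 1, where they reached 30.5 to 43.0 CPM. There Fabp4, Plin1 and Cidec had means of 20.4, 7.78 and 7.56 CPM. Adipoq had a mean of 0.21 CPM there, against 0.19 in uninduced clone 1 and 0.60 in uninduced WT, and leptin (Lep) was at 0. The part of adipocyte-like cells in the clone 1 results below was not tested. The 5 haematopoietic markers summed to at most 1.68 CPM, with Ptprc and Cd3e at 0 in every group and Cd68 counted in every group. Epithelial markers summed to at most 3.52 CPM (uninduced clone 1) and endothelial markers to at most 7.92 CPM (uninduced WT). Neural markers summed to 35.4 to 60.2 CPM, most of it Map2, with group means of 33.2 to 51.0 CPM. Fewer cells of a type cannot be told apart from less RNA per cell in these bulk samples.

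The 68 members summed to 473405 counts, 0.122% of all counts, and 42.0% of these fell on 3 members, 2900097C17Rik, Gm26917 and 1700020I14Rik. The share of a library taken by all members was 0.130% ± 0.00825 (SD, n = 3), 0.141% ± 0.0072 and 0.138% ± 0.00072 in uninduced WT, clone 1 and clone 2, and 0.101% ± 0.00291, 0.116% ± 0.00451 and 0.109% ± 0.0039 after stimulation. The shares of each line did not overlap between the states. The median coefficient of variation of the members within a group ran from 10.96% to 17.4%, against 6.58% to 11.9% for all tested genes, and the median member held 2036 counts over the 18 libraries.

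Per kilobase of gene length, a scale that allows genes to be compared, the mean level over all libraries was 90.1 CPM per kb for Gm10076, 51.4 for Gm26917, 45.5 for 2900097C17Rik, 30.7 for Epb41l4aos, 29.8 for 1810058I24Rik, 19.9 for Snhg18, 18.6 for Tmem250-ps and 15.2 for 2010320M18Rik. The level of Gm10076 is uncertain, since 99.7% of its transcript is at least 95% identical to the messenger RNA of the ribosomal protein gene Rpl41, and how reads with several matches were counted is not given in the sources used here. Of all members, 11 shared over 20% of their exonic bases or of their longest transcript with another gene. RefSeq (GRCm38.p6) lists 43 members as long noncoding, 4 as protein coding (1810058I24Rik, Tmem250-ps, Zfp469 and Gm46430) and 3 as pseudogenes (Gm10076, 4632415L05Rik and Gm32618), and 18 were not matched.

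A member was called changed when edgeR's quasi-likelihood test gave a Benjamini-Hochberg adjusted p under 0.05 over 14317 genes tested, all 68 members among them, with a log2 fold change beyond 1 in either direction. In WT cells stimulation raised 5 members and lowered 15, which is 29.4% of the members, where 19.9% of all tested genes were called (6.25% higher, 13.6% lower). The median log2 fold change was -0.30 over the members and -0.04 over all tested genes. With no fold threshold, 39 of 68 members and 8693 of 14317 tested genes passed in WT, so the larger share of members rests on that threshold. In clone 1 libraries 6 members rose and 7 fell with stimulation (19.1% of members, against 5.95% higher and 10.7% lower or 16.7% of all genes), and in clone 2 libraries 8 rose and 9 fell (25%, against 6.46% higher and 11.2% lower or 17.7%), with member medians of 0.04 and 0.01. In total 45 members were called in at least 1 of 11 comparisons and 23 in none, as the map of fold changes shows. The matching share of all tested genes was not counted, so these 2 numbers only describe the map.

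**Figure D1:**
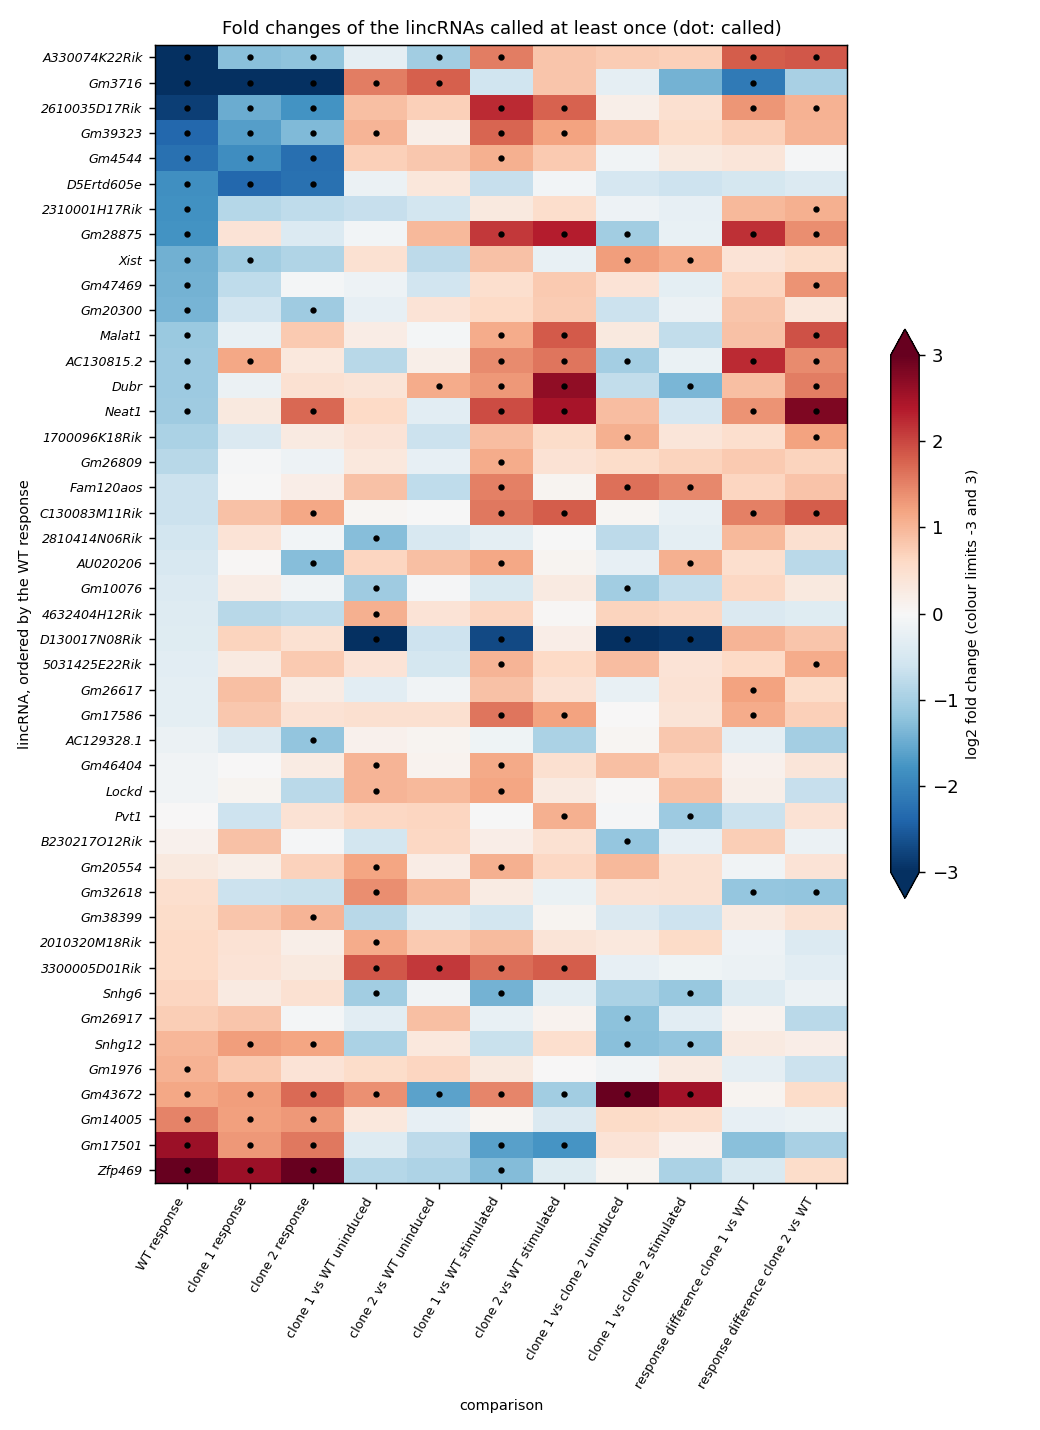
Log2 fold change (colour, limits -3 and 3) of the 45 lincRNAs called in at least 1 of 11 comparisons (columns); a dot marks a call. In stimulated cells, 20 of the called lincRNAs were higher and 4 lower in clone 1 than in WT, and 11 were higher and 2 lower in clone 2. Of all 14317 tested genes, 9.42% were higher and 9.60% lower in clone 1, and 7.95% and 8.94% in clone 2.

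In stimulated cells, members called against WT in the libraries labelled KO were more often higher than lower, while in uninduced cells the direction depended on the thresholds. In uninduced cells 10 were higher and 4 lower in clone 1 (20.6% of members, against 6.32% higher and 8.73% lower or 15.1% of all genes), and 3 were higher and 2 lower in clone 2 (7.35%, against 5.54% higher and 9.56% lower or 15.1%). With a minimum of 2000 summed counts 1 was higher and 2 were lower in uninduced clone 1, and edgeR called 0 in uninduced clone 2, with 19 of 35 at an unadjusted p under 0.05 and 0 called by DESeq2. With the fold change tested against the threshold 1 was higher and 1 lower in uninduced clone 1. In stimulated cells 20 were higher and 4 lower in clone 1 (35.3%, against 9.42% higher and 9.60% lower or 19% of all genes), and 11 were higher and 2 lower in clone 2 (19.1%, against 7.95% higher and 8.94% lower or 16.9%). Median log2 fold changes in stimulated cells were 0.33 and 0.26 over the members, against -0.02 and -0.01 over all genes. Clone 1 and clone 2 share their WT libraries as the reference, which ties their counts to each other.

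**Figure D2:**
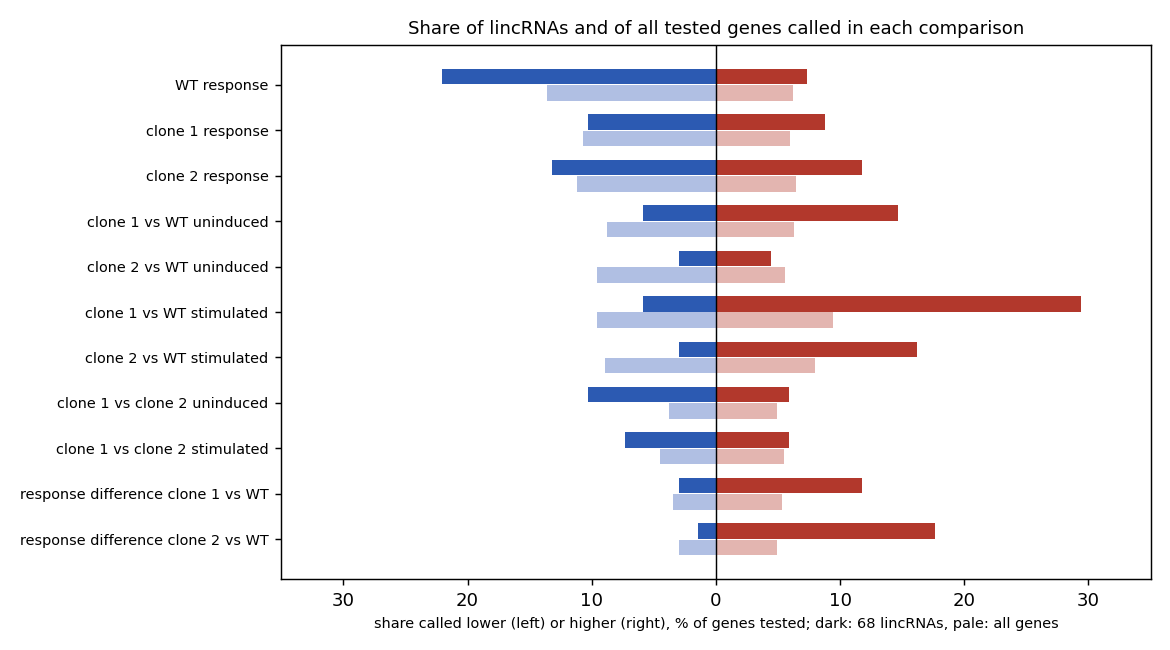
Share of the 68 lincRNAs (dark bars) and of all 14317 tested genes (pale bars) called lower or higher in each comparison, in percent of genes tested. In stimulated cells 20 lincRNAs were higher in clone 1 than in WT and 11 in clone 2, beside 9.42% and 7.95% of all genes.

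Neat1, the scaffold RNA of paraspeckles, fell with stimulation in WT and rose in clone 2. WT libraries had 20.5, 23.4 and 22.2 CPM uninduced and 10.5, 10.5 and 10.5 CPM stimulated. Clone 1 had 27.8, 36.2 and 36.3 CPM uninduced and 33.9, 46.3 and 41.4 CPM stimulated, and clone 2 had 18.1, 13.7 and 21.4 and 52.6, 61.3 and 60.6 CPM. The states did not overlap in WT or clone 2 and overlapped in clone 1, and stimulated libraries of both clones lay above all stimulated WT libraries. The log2 change with stimulation was -1.07 ± 0.14 (SE) in WT, 0.28 ± 0.13 in clone 1, which was not called, and 1.72 ± 0.13 in clone 2. The response differed from that of WT by 1.36 ± 0.19 in clone 1 (edgeR adjusted p = 4.24e-06) and by 2.79 ± 0.19 in clone 2 (edgeR adjusted p = 3.65e-11). In stimulated cells Neat1 was 1.96 ± 0.14 higher in clone 1 and 2.47 ± 0.14 higher in clone 2 than in WT on the log2 scale.

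Malat1, the RNA of nuclear speckles whose gene lies near Neat1, had a wider spread. It had 53.6, 41.9 and 51.8 CPM in WT uninduced and 21.2, 19.4 and 27.8 CPM in WT stimulated libraries. Clone 1 had 38.8, 50.7 and 83.9 CPM uninduced and 34.1, 59.7 and 52.8 CPM stimulated, and clone 2 had 49.6, 36 and 55.5 and 57.4, 86 and 101 CPM. The states overlapped in clone 1 and in neither other line, and all stimulated clone libraries lay above all stimulated WT libraries. Malat1 fell by 1.11 ± 0.33 on the log2 scale in WT (edgeR adjusted p = 0.00986), and the clone 2 response differed from that by 1.9 ± 0.45 (edgeR adjusted p = 0.00522). The clone 1 response difference of 0.87 was not called. Stimulated clone 1 and clone 2 lay 1.11 ± 0.32 and 1.84 ± 0.32 above WT. The fall in WT went to -0.99 without WT stimulated replicate 2, and the difference of stimulated clone 1 from WT to 0.93 without clone 1 stimulated replicate 2, both short of the fold limit.

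Malat1 and the long form of Neat1 are known to end in genome-encoded A bases that fold back on U-rich motifs in place of an added poly(A) tail, and these libraries were made from poly(A)-selected RNA. The stretch around these motifs is shown for each from the GENCODE M21 transcript (GRCm38, minus strand), with 2 U-rich motifs (written with T) and the A-rich tract in capitals. It runs from base 6598 to 6696 of 6983 in Malat1 and from base 20672 to 20771 of 20771 in Neat1.
Malat1: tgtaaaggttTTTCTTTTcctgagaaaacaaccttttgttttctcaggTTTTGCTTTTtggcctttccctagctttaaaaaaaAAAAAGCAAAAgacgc
Neat1: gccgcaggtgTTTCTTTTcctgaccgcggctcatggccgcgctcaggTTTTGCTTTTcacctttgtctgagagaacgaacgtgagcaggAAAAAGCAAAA
Both transcripts held the 3 motifs in the same order. Counts are per gene, so the short polyadenylated form of Neat1 and its long form cannot be told apart in them.

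**Figure D3:**
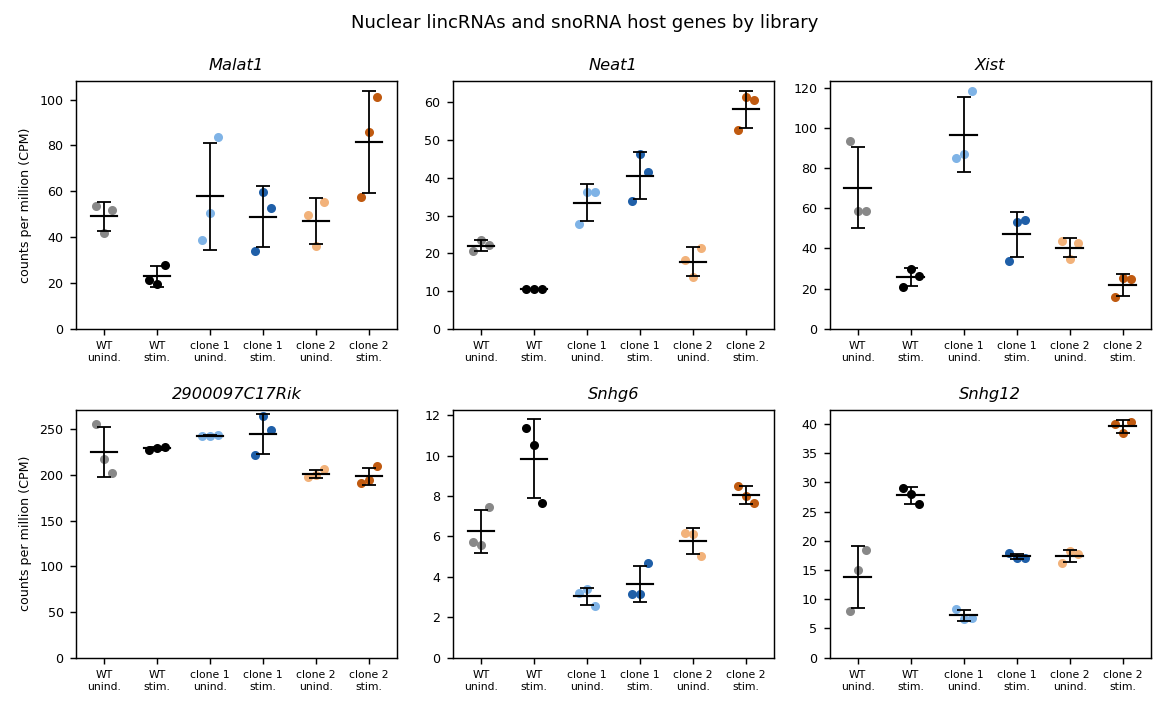
CPM (vertical axis) of Malat1, Neat1, Xist, 2900097C17Rik, Snhg6 and Snhg12 in each of 18 libraries (points), with the group mean (line) and SD (bars). Stimulated WT libraries had 10.5 to 10.5 CPM of Neat1 and stimulated clone 2 libraries 52.6 to 61.3 CPM, while those groups had 227 to 231 and 191 to 209 CPM of 2900097C17Rik.

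Genes for proteins that work with these RNAs were counted beside the share of all tested genes called, which ran from 7.85% to 19.9% over the 11 comparisons. Of 11 paraspeckle proteins tested, edgeR called 1 in the clone 2 response, the splicing factor gene Sfpq, at -1.05. In the other 10 comparisons it called 0, with 5 to 9 at an unadjusted p under 0.05, and DESeq2 called 1 in stimulated clone 1 against WT and 0 elsewhere. Of 10 nuclear speckle proteins, edgeR and DESeq2 called 1, the response difference of clone 2 for the splicing-associated Pnn (-1.16), and 0 in the other 10 comparisons, with 2 to 7 at an unadjusted p under 0.05. Of 12 genes of the p53 axis, a pathway known to drive Neat1, 3 fell with stimulation in WT, where 13.6% of all tested genes fell. In each clone 1 rose and 1 fell. Of all tested genes 5.95% rose and 10.7% fell in clone 1, and 6.46% and 11.2% in clone 2. In stimulated clone 1 and clone 2, 2 and 4 of the 12 were higher than in WT, beside 9.42% and 7.95% of all tested genes. Cdkn1a, which encodes the cell cycle inhibitor p21, had log2 differences of 2.02 and 2.2 there and changed by -1.01 with stimulation in WT. In uninduced clone 1 and clone 2, 2 and 1 of the 12 were higher than in WT, beside 6.32% and 5.54% of all tested genes. The response difference was called higher for 3 of the 12 in clone 2, beside 4.89% of all tested genes. In clone 1 edgeR and DESeq2 called 0 response differences, with 6 of the 12 at an unadjusted p under 0.05. A link between these genes and Neat1 was not tested.

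Xist fell with stimulation and differed between the clones. It had 93.5, 58.7 and 58.5 CPM in WT uninduced and 20.7, 29.6 and 26.3 CPM in WT stimulated libraries. Clone 1 had 84.8, 87 and 118 and 33.8, 53 and 54 CPM, and clone 2 had 43.7, 34.8 and 42.7 and 15.7, 25.4 and 24.5 CPM. Stimulated libraries lay below uninduced ones in each line, and clone 1 lay above clone 2 in each state. The fall was 1.45 ± 0.26 in WT and 1.04 ± 0.24 in clone 1 on the log2 scale, and the value in clone 2, -0.89, was under the fold limit. Clone 1 was above clone 2 by 1.26 ± 0.25 uninduced and 1.11 ± 0.27 stimulated (edgeR adjusted p = 0.00103 and 0.00422). The clone 1 response went to -0.87 without clone 1 uninduced replicate 3 and to -0.84 without clone 1 stimulated replicate 1, and the stimulated difference between clones to 0.92 without clone 2 stimulated replicate 1. Other annotated RNAs, Tsix among them, overlap 12.6% of the exonic bases of Xist, and the strand setting of the counting is not given in the sources used here.

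2900097C17Rik, known as Norad, a cytoplasmic RNA that binds Pumilio proteins, changed little. Its group values were 225 ± 27.5 and 229 ± 1.75 CPM (mean ± SD, n = 3) in WT uninduced and stimulated, 243 ± 0.475 and 245 ± 22.1 in clone 1, and 201 ± 4.5 and 198 ± 9.53 in clone 2. Log2 changes with stimulation were 0.03, 0.01 and -0.02. Its transcript of 4915 bases held the Pumilio motif TGTANATA 11 times. Gm7292, whose transcript of 2527 bases is at least 95% identical to Norad along 100% of its length, held the motif 9 times, so reads of these 2 genes may not have been told apart.

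1700020I14Rik, known as Cyrano or Oip5os1 and chosen for display after its values were seen, went from 143 ± 9.78 to 79.2 ± 3.75 CPM with stimulation in WT, from 145 ± 7.63 to 111 ± 7.91 in clone 1 and from 125 ± 2.75 to 89.6 ± 8.69 in clone 2. The states did not overlap in any line, and the log2 changes of -0.85, -0.38 and -0.48 were within the fold limit. Cyrano is known for an extensively paired site for miR-7. The site was found at bases 2935 to 2959 of the 8300-base GENCODE M21 transcript and is shown with the microRNA (RefSeq), with the paired bases of the site and the seed of the microRNA (bases 2 to 8) in capitals.
1700020I14Rik site: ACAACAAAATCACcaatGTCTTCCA
mmu-miR-7a-5p: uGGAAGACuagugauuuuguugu
The site had 13 and 8 paired bases on either side of an unpaired stretch. AL805899.1, also displayed after its values were seen, is the member with an annotated microRNA inside it, Mir31 (mature form at chr4:88910614-88910635, GRCm38.p6, minus strand), shown with its seed in capitals.
mmu-miR-31-5p: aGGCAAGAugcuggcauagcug
AL805899.1 had 2.25 ± 0.289, 1.85 ± 0.5 and 2.52 ± 0.245 CPM in uninduced WT, clone 1 and clone 2 and 3.75 ± 0.647, 2.95 ± 0.381 and 4.48 ± 0.703 CPM after stimulation, and its log2 changes of 0.73, 0.67 and 0.84 were not called. Mature microRNAs were not measured. Of 12 microRNA-processing genes, Ago4, which encodes an Argonaute protein, was the 1 that fell with stimulation in each line (-1.63, -1.42 and -1.12). Of all tested genes 13.6%, 10.7% and 11.2% fell, and DESeq2 called 1, 1 and 0 of the 12 lower. Against WT, edgeR called 1 of the 12 lower in clone 2 in each state, Ago4 again, at -3.55 uninduced and -3.04 stimulated. Of all tested genes 9.56% and 8.94% were lower there. The fall of Ago4 in clone 2 thus began from a level below that of WT. In clone 1 edgeR called 1 of the 12 lower uninduced and 1 higher stimulated, beside 8.73% and 9.42% of all tested genes.

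Among the snoRNA hosts, Snhg12, which holds H/ACA and C/D snoRNAs, was higher after stimulation. It had 8.04, 14.9 and 18.4 CPM in WT uninduced and 29, 28 and 26.2 CPM in WT stimulated libraries. Clone 1 had 8.35, 6.6 and 6.78 and 17.8, 17.1 and 17.1 CPM, and clone 2 had 16.2, 18.2 and 17.7 and 40, 38.4 and 40.4 CPM. All stimulated libraries were above all uninduced ones of their line. The log2 change was 0.99 in WT, just under the fold limit, and Snhg12 rose by 1.26 ± 0.18 in clone 1 and 1.19 ± 0.16 in clone 2, with response differences of 0.27 and 0.21 that were not called. Clone 1 lay below clone 2, at -1.26 ± 0.18 uninduced and -1.19 ± 0.16 stimulated.

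Snhg6, the host of Snord87, was low in clone 1. It had 5.71, 5.56 and 7.47 CPM in WT uninduced and 11.4, 10.5 and 7.67 CPM in WT stimulated libraries. Clone 1 had 3.18, 3.38 and 2.54 and 3.14, 3.13 and 4.69 CPM, and clone 2 had 6.18, 6.11 and 5.04 and 8.52, 7.98 and 7.64 CPM. Clone 1 lay below WT and clone 2 without overlap in each state. Its log2 difference from WT was -1.05 ± 0.20 uninduced and -1.43 ± 0.19 stimulated, and the first went to -0.89 without WT uninduced replicate 3 and to -0.94 without clone 1 uninduced replicate 3. Snhg18, host of Snord123, had log2 changes of 0.55, 0.70 and 0.70 with stimulation, and Epb41l4aos of 0.46, 0.29 and 0.56, none of them called. Of 13 genes for proteins that bind snoRNAs, 2 rose with stimulation in WT (Nop56 at 1.78 and Nop58 at 1.16) and 1 in clone 1 (Nop56 at 1.05), beside 6.25% and 5.95% of all tested genes called higher. In clone 2 edgeR and DESeq2 called 0 of them, with 9 at an unadjusted p under 0.05. Of 10 nonsense-mediated decay factors, which degrade many spliced noncoding transcripts of host genes, edgeR and DESeq2 called 0 in all 11 comparisons, with 1 to 6 at an unadjusted p under 0.05.

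Zfp469, typed as lincRNA here but listed by RefSeq as a protein-coding zinc finger gene, rose in every line. It had 2.04, 3.04 and 1.37 CPM in WT uninduced and 16.1, 20 and 15.7 CPM in WT stimulated libraries. Clone 1 went from 0.615, 1.45 and 1.45 to 6.28, 8.92 and 5.6 CPM and clone 2 from 1.12, 1.24 and 0.928 to 16.1, 13.1 and 11 CPM. The states did not overlap in any line. The rise was 3.04 ± 0.24, 2.58 ± 0.28 and 3.6 ± 0.26 on the log2 scale in WT, clone 1 and clone 2, and stimulated clone 1 differed from WT by -1.31 ± 0.21. Gm14005, known as Morrbid, an RNA near the apoptosis gene Bcl2l11, rose from 3.74 ± 1.35 to 10.4 ± 0.682 CPM in WT, from 4.62 ± 0.562 to 10.9 ± 1.4 in clone 1 and from 3.08 ± 0.395 to 7.64 ± 0.484 in clone 2. These rises were 1.49 ± 0.19, 1.24 ± 0.18 and 1.3 ± 0.19, while Bcl2l11 itself had log2 changes of -0.82, -0.29 and -0.16.

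Gm3716, Gm4544, D5Ertd605e, Gm39323, 2610035D17Rik and A330074K22Rik fell with stimulation in all 3 lines. Gm3716 had 0.757, 3.36 and 2.86 CPM in WT uninduced, 6.51, 7.13 and 6.94 in clone 1 and 8.75, 7 and 9.1 in clone 2, and after stimulation 0.293, 0.389 and 0.18, 0.213, 0.332 and 0 and 0.616, 0.327 and 0.601 CPM. Uninduced clone libraries lay above uninduced WT ones, and stimulated libraries of every line lay below 1 CPM. The log2 changes were -3.01 ± 0.48, -5.13 ± 0.48 and -3.98 ± 0.42, sizes that rest on few counts: without clone 1 stimulated replicate 2 that of clone 1 was -6.02. Gm4544 went from 9.04 ± 1.09 to 1.92 ± 0.176 CPM in WT, from 14.8 ± 0.257 to 4.05 ± 0.0998 in clone 1 and from 15.9 ± 0.631 to 3.31 ± 0.894 in clone 2, and D5Ertd605e fell by 1.83 ± 0.27, 2.35 ± 0.29 and 2.24 ± 0.28 on the log2 scale.

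2610035D17Rik fell less in the clones than in WT. It had 11.3, 8.7 and 9.64 CPM in WT uninduced and 0.734, 1.43 and 1.94 CPM in WT stimulated libraries. Clone 1 had 17.3, 17.9 and 19.9 and 7.03, 5.31 and 7.29 CPM, and clone 2 had 18.7, 14.4 and 15.3 and 5.72, 3.99 and 4.27 CPM. The clones lay above WT in each state without overlap. The response was -2.83 ± 0.22 in WT, -1.5 ± 0.17 in clone 1 and -1.79 ± 0.18 in clone 2, and it differed from WT by 1.34 ± 0.28 (edgeR adjusted p = 0.000458) and 1.04 ± 0.29 (edgeR adjusted p = 0.00684). The clone 2 difference fell short of the fold limit in 5 of the fits that each left out 1 library, to 0.75 without WT stimulated replicate 1, and was 0.97 with no filter beyond 1 count. Stimulated clone 1 and clone 2 exceeded WT by 2.23 ± 0.22 and 1.76 ± 0.24.

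**Figure D4:**
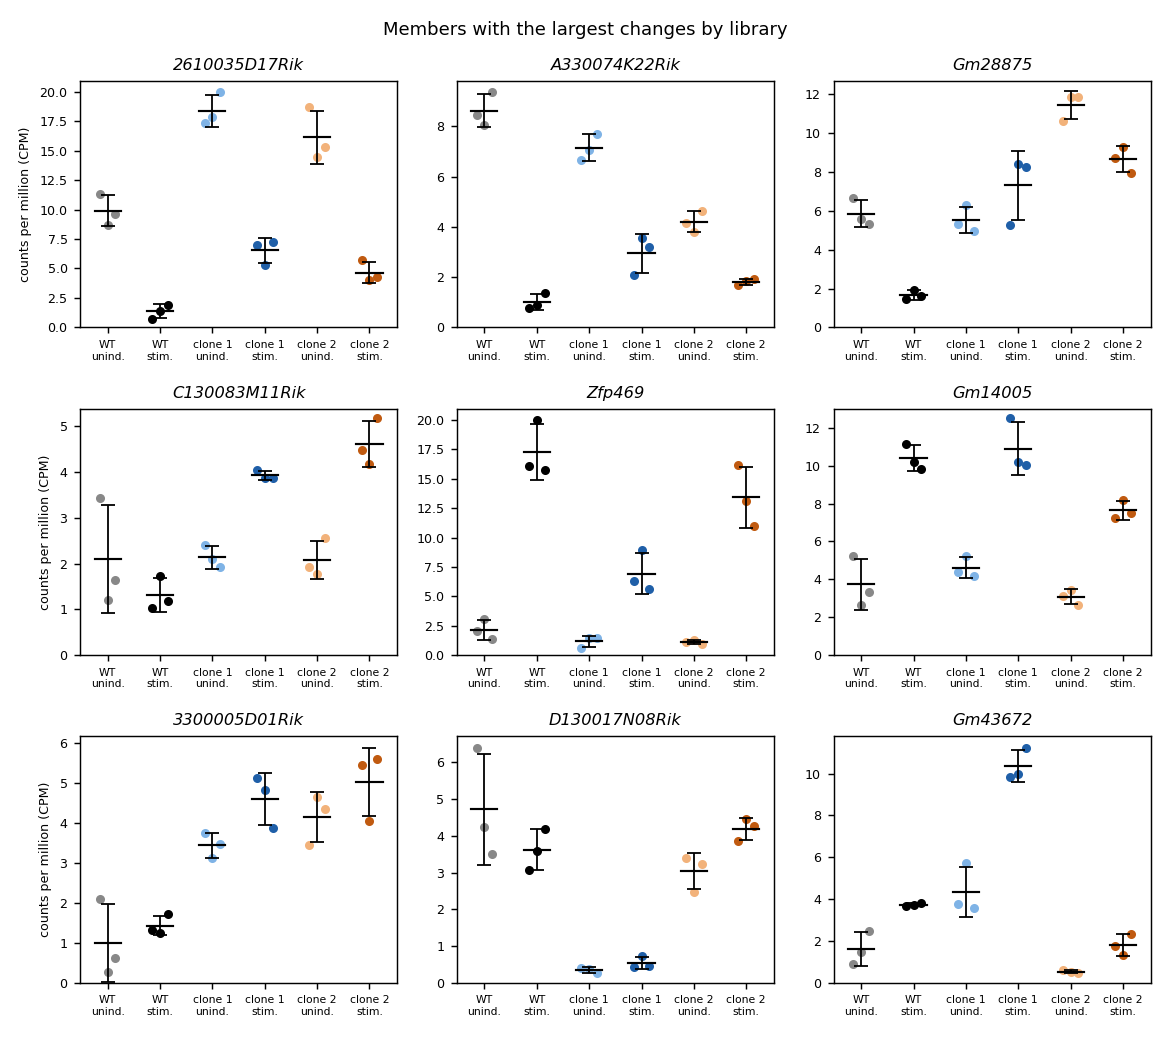
CPM (vertical axes) of 9 lincRNAs in each of 18 libraries (points), with the group mean (line) and SD (bars). Stimulated WT libraries of 2610035D17Rik had 0.734 to 1.94 CPM, D130017N08Rik had at most 0.738 CPM in clone 1 libraries, and Gm43672 was higher in clone 1 and lower in clone 2 than in WT.

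Gm28875, a member of 1 exon that lies 3244 bases from the coding gene Syne3 on the same strand, fell in WT and was not called in the response of either clone. It had 6.64, 5.56 and 5.34 CPM in WT uninduced and 1.47, 1.94 and 1.62 CPM in WT stimulated libraries. Clone 1 had 5.33, 6.28 and 4.97 and 5.27, 8.41 and 8.24 CPM, and clone 2 had 10.6, 11.8 and 11.8 and 8.68, 9.28 and 7.94 CPM. All stimulated clone libraries lay above all stimulated WT libraries. The log2 changes were -1.78 ± 0.20, 0.41 and -0.40, and the response differed from WT by 2.2 ± 0.26 in clone 1 (edgeR adjusted p = 8.43e-08) and 1.39 ± 0.26 in clone 2 (edgeR adjusted p = 9.66e-05).

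AC130815.2, near the phosphatase inhibitor gene Ppp1r2, fell from 5.42 ± 0.963 to 2.51 ± 0.452 CPM in WT, rose from 3.02 ± 0.727 to 6.69 ± 0.863 CPM in clone 1 and had 6.14 ± 0.471 and 7.67 ± 1.17 CPM in clone 2. Its response differences were 2.25 ± 0.29 (edgeR adjusted p = 2.83e-07) and 1.42 ± 0.28 (edgeR adjusted p = 0.000178). The WT change of -1.1 went to -0.95 without WT uninduced replicate 1 and to -0.98 without WT stimulated replicate 3, and the clone 1 change of 1.15 to 0.97 without clone 1 uninduced replicate 1. C130083M11Rik had 3.44, 1.21 and 1.64 CPM in WT uninduced and 1.03, 1.73 and 1.17 CPM in WT stimulated libraries, 2.41, 2.09 and 1.92 and 4.05, 3.87 and 3.87 CPM in clone 1, and 1.92, 1.77 and 2.55 and 4.48, 4.18 and 5.17 CPM in clone 2. The states overlapped in WT and not in the clones, and the response differed from WT by 1.52 ± 0.43 (edgeR adjusted p = 0.00684) and 1.81 ± 0.43 (edgeR adjusted p = 0.00138).

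Dubr, also known as Dum, an RNA linked to muscle cell differentiation, fell from 3.2 ± 0.601 to 1.5 ± 0.281 CPM in WT and had 4.13 ± 0.471 and 3.68 ± 0.407 CPM in clone 1 and 6.92 ± 0.685 and 9.42 ± 1.2 CPM in clone 2. Stimulated clone 2 was 2.65 ± 0.21 above WT on the log2 scale, with a response difference of 1.54 ± 0.28 (edgeR adjusted p = 7.69e-05). The fall in WT (-1.09) went to -0.92 without WT uninduced replicate 2 and to -0.96 without WT stimulated replicate 3. Gm32618, listed by RefSeq as a transcribed pseudogene, was shifted the other way, with response differences of -1.15 ± 0.32 and -1.17 ± 0.33 (edgeR adjusted p = 0.00607 and 0.00665). It had 1.22, 3.15 and 3.77 CPM in WT uninduced libraries, and without replicate 1 of these the differences were -0.83 and -0.85. For Gm3716 the clone 1 response difference of -2.12 ± 0.81 had an edgeR adjusted p of 0.0475, which lay between 0.06 and 0.18 when any of 7 libraries was left out, and the difference was -3.03 without clone 1 stimulated replicate 2. In all, the response difference was called for 10 members in clone 1 (8 higher and 2 lower, 14.7%, against 5.34% higher and 3.46% lower or 8.81% of all genes) and 13 in clone 2 (12 higher and 1 lower, 19.1%, against 4.89% higher and 2.96% lower or 7.85%).

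3300005D01Rik was called higher in each clone than in WT in each state. WT libraries had 2.1, 0.262 and 0.61 CPM uninduced and 1.32, 1.25 and 1.71 CPM stimulated. Clone 1 had 3.74, 3.11 and 3.47 and 5.11, 4.83 and 3.87 CPM, and clone 2 had 3.44, 4.65 and 4.35 and 5.44, 4.05 and 5.59 CPM. No WT library reached a clone library of the same state. The log2 differences were 1.86 ± 0.37 and 2.12 ± 0.36 uninduced and 1.68 ± 0.34 and 1.81 ± 0.34 stimulated, and the uninduced ones were 2.89 and 3.15 without WT uninduced replicate 1.

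D130017N08Rik was low in clone 1. It had 6.41, 4.25 and 3.51 CPM uninduced and 3.08, 3.59 and 4.19 CPM stimulated in WT, and 0.41, 0.376 and 0.259 and 0.426, 0.738 and 0.456 CPM in clone 1. Clone 2 had 3.39, 2.48 and 3.25 and 3.87, 4.45 and 4.27 CPM. Clone 1 did not overlap WT, with log2 differences of -3.73 ± 0.34 uninduced and -2.7 ± 0.31 stimulated, and the clone 2 values of -0.62 and 0.21 were not called. Gm43672, a member of 1 exon that starts 510 bases from the coregulator gene Tbl1xr1 and that reached the count minimum only through stimulated clone 1 libraries, had 0.874, 1.47 and 2.48 CPM in WT uninduced, 3.74, 5.74 and 3.57 in clone 1 and 0.602, 0.531 and 0.464 in clone 2, and 3.67 to 3.83, 9.85 to 11.3 and 1.31 to 2.35 CPM after stimulation. Clone 1 lay above and clone 2 below WT in each state, and the clones differed by 2.97 ± 0.31 uninduced and 2.52 ± 0.27 stimulated. The stimulated clone 2 difference of -1.05 went to -0.88 without clone 2 stimulated replicate 2.

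Fam120aos, which starts 270 bases from the RNA-binding protein gene Fam120a on the opposite strand, had 20 to 22.7 CPM in uninduced clone 1 and 6.44 to 6.98 CPM in uninduced clone 2, and the clones differed by 1.65 ± 0.12 uninduced and 1.45 ± 0.12 stimulated. Gm26917 had 96 ± 10.6 CPM in uninduced clone 1 and 224 ± 6.24 CPM in uninduced clone 2, a log2 difference of -1.22 ± 0.09. Between the clones, 4 members were higher and 7 lower in clone 1 uninduced (16.2%, against 4.89% higher and 3.78% lower or 8.67% of all genes), and 4 were higher and 5 lower stimulated (13.2%, against 5.5% higher and 4.48% lower or 9.98%). With 1 clone per line, a difference between clones cannot be told apart from an effect of cloning.

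Pvt1, a neighbour of the growth gene Myc, had 11.9 to 14 CPM in stimulated clone 2 and 5.28 to 6.55 CPM in stimulated WT, a difference of 1.07 ± 0.16 that went to 0.98 without WT stimulated replicate 3 and to 0.99 without clone 2 stimulated replicate 1. Myc rose by 1.81, 1.52 and 1.77 with stimulation in WT, clone 1 and clone 2, where Pvt1 had 0.01, -0.62 and 0.44. Bvht, an RNA known from heart muscle commitment, was not called, with changes of -0.38, -0.06 and -0.32. In uninduced clone 1, 2810414N06Rik and Gm10076 differed from WT by -1.27 ± 0.27 and -1.07 ± 0.20 and 2010320M18Rik by 1.11 ± 0.19, and without WT uninduced replicate 1 the values of Gm10076 and 2010320M18Rik were -0.95 and 0.82, and that of Gm10076 was -0.99 without clone 1 uninduced replicate 3. 2310001H17Rik fell by 1.82 ± 0.26 in WT, and its clone 2 response difference of 1.06 ± 0.37 (edgeR adjusted p = 0.0288) was lost in 5 of the fits without 1 library and with no filter beyond 1 count (edgeR adjusted p = 0.088). Tmem250-ps and 1810058I24Rik were not called in any comparison.

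Many members lie close to a coding gene: the median gap to the nearest tested coding gene was 8293.5 bases, and 32 of 68 lay within 5 kb of one. Gm17501 starts 331 bases from Cyr61 (Ccn1), which encodes a matricellular protein, on the opposite strand, and it reached the count minimum only through stimulated WT libraries. It had 0.408, 2.05 and 2.02 CPM in WT uninduced and 8.75, 10.1 and 8.34 CPM in WT stimulated libraries, and 3.83, 3.02 and 1.91 and 2.91, 2.94 and 2.11 CPM in stimulated clone 1 and clone 2. Stimulated clones lay below stimulated WT without overlap, at -1.64 ± 0.33 and -1.77 ± 0.34. Cyr61 had 152 ± 25.7 and 643 ± 93.7 CPM in WT uninduced and stimulated libraries and 303 ± 16.6 and 302 ± 34.8 CPM in the stimulated clones, -1.08 and -1.09 from WT. The RefSeq promoter windows (250 bases before and 50 after the start) of Gm17501 at chr3:145649827-145650126 (GRCm38.p6, plus strand) and of Ccn1 at chr3:145649936-145650235 share 191 bases, in capitals in the Gm17501 window.
Gm17501 promoter: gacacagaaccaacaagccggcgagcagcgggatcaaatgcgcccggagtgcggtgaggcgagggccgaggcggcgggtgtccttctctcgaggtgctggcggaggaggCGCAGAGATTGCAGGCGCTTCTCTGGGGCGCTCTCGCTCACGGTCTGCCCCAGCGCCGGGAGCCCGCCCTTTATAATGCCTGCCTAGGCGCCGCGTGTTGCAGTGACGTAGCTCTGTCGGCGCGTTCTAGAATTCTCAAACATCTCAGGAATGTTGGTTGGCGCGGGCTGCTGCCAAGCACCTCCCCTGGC

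A330074K22Rik starts 226 bases from Gse1, a coding gene linked to chromatin, also on the opposite strand. It had 8.45, 8.07 and 9.38 CPM in WT uninduced and 0.783, 0.907 and 1.35 CPM in WT stimulated libraries. Clone 1 went from 6.66, 7.08 and 7.72 to 2.08, 3.58 and 3.19 CPM and clone 2 from 4.17, 3.81 and 4.64 to 1.68, 1.83 and 1.92 CPM. The states did not overlap in any line. The change was -3.08 ± 0.23 in WT, -1.26 ± 0.20 in clone 1 and -1.21 ± 0.23 in clone 2, with response differences of 1.82 ± 0.31 (edgeR adjusted p = 2.6e-05) and 1.87 ± 0.33 (edgeR adjusted p = 4.61e-05). Gse1 had log2 changes of -1.63, -0.31 and -1.33 in the same lines.

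Syne3, which encodes a nuclear envelope protein, had 25 ± 1.01 and 6.03 ± 0.522 CPM in WT uninduced and stimulated libraries and 28.1 ± 2.88 and 37.5 ± 3.47 CPM in stimulated clone 1 and clone 2. It lay 2.22 and 2.63 above stimulated WT, where Gm28875 lay 2.12 and 2.35 above. Ppp1r2 was 1.43 and 1.32 above stimulated WT where AC130815.2 was 1.41 and 1.61 above. Gm39323 starts 2325 bases from Thy1, which encodes a fibroblast surface protein, and the pair differed in clone 2. Thy1 had 59.7 ± 1.4 CPM in uninduced WT, 184 ± 9.08 in clone 1 and 0.616 ± 0.258 in clone 2, while Gm39323 had 3.34 ± 0.462, 6.73 ± 1.65 and 3.73 ± 0.237 CPM in these groups. The log2 differences from uninduced WT were 1.63 and 1.02 for Thy1 and Gm39323 in clone 1, and -6.62 and 0.17 in clone 2. Sema5a, 148 bases from Snhg18, had log2 changes with stimulation of 2.8, 2.52 and 3.69, well above those of Snhg18.

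**Figure D5:**
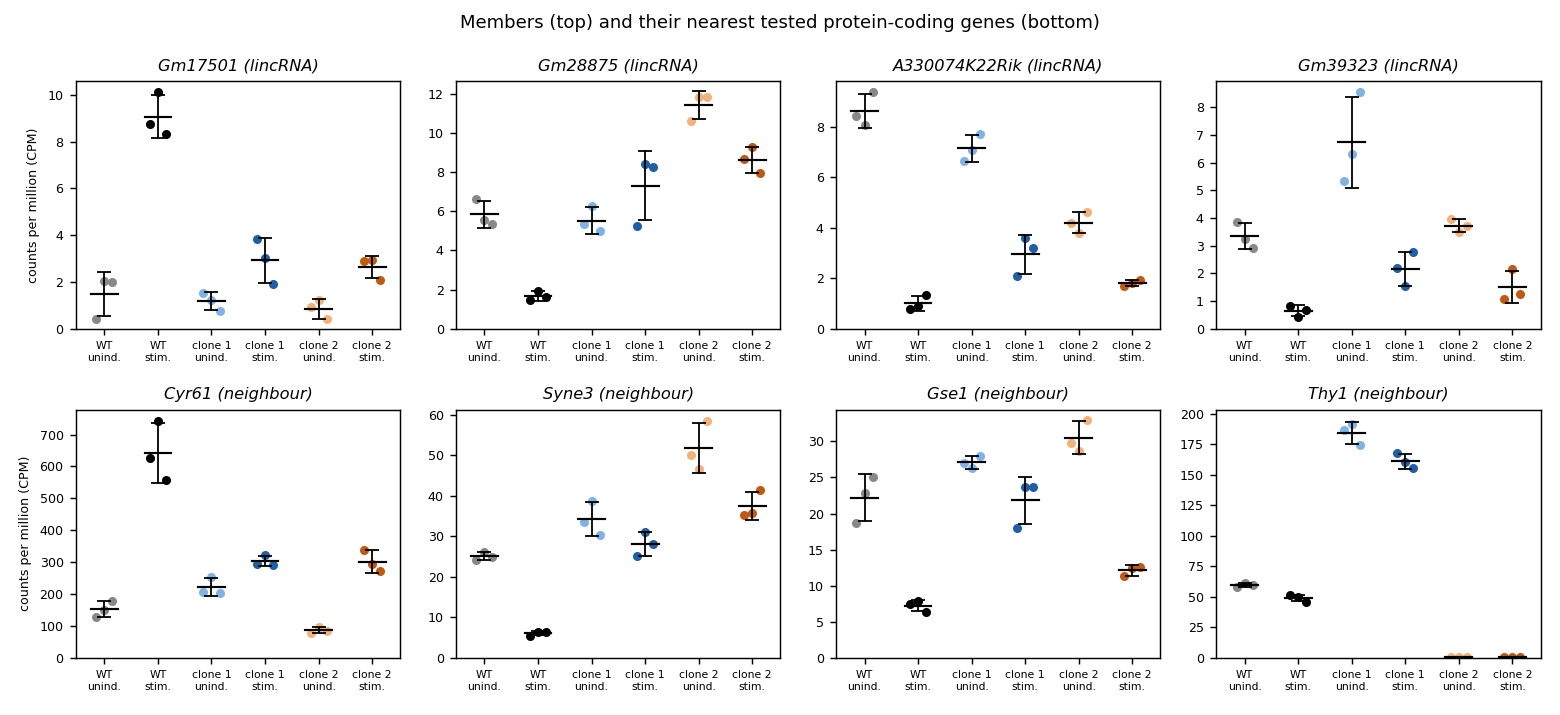
CPM (vertical axes, scaled per panel) of 4 lincRNAs and of the nearest tested protein-coding gene of each in 18 libraries (points), with the group mean (line) and SD (bars). Gm28875 and Syne3 were lowest in stimulated WT libraries, and Thy1 reached at most 0.87 CPM in uninduced clone 2 libraries, where Gm39323 had 3.5 to 3.97 CPM.

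Over the called members, the nearest coding gene was called in the same direction for 5 of 20 (25%) in the WT response and for 9 of 24 (37.5%) in stimulated clone 1 against WT, where it was so for 20.3% and 22.3% of all called genes. In stimulated clone 2 against WT it was 3 of 13 (23.1%, against 19.7%), in the clone 1 response 1 of 13 (7.69%, against 19.2%) and in the clone 2 response 3 of 17 (17.6%, against 19.5%). In uninduced cells it was 3 of 14 in clone 1 against WT (21.4%, against 19.3%), with 2 in the opposite direction, and 0 of 5 in clone 2 against WT (against 16.7%). Between the clones it was 0 of 11 uninduced and 0 of 9 stimulated (against 13.1% and 14.6%), and for the response differences it was 3 of 10 in clone 1 (30%, against 12.8%) and 1 of 13 in clone 2 (7.69%, against 12.6%). These shares are a description, with no test.

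Promoter windows from RefSeq were matched for 41 members. On both strands, 0 of 41 held the forkhead motif GTAAACA, which 3.65% of 32851 windows hold, and 1, 1300002E11Rik, held the cAMP response element TGACGTCA (2.44%, against 1.79%). The palindromic glucocorticoid response element and the SMAD motif GTCTAGAC were in 0 of 41, and in 0.00913% and 0.213% of all windows. The TATA motif TATAAA, added after the data were seen, was in 8 of 41 (19.5%, against 13.6%), among them Gm17501, 2610035D17Rik, Gm4544 and Xist. In Gm17501 the match is on the opposite strand, the strand of Ccn1, within the bases that the windows of these genes share. Members were counted once per gene if any of their windows held the motif, while the shares of all are per window. The 2 kinds of share thus differ in unit. A match describes letters in a window only. The windows of 3 members that were higher in a stimulated clone than in WT are shown with the bases after the start in capitals: A330074K22Rik at chr8:120228181-120228480 (minus strand), 2610035D17Rik at chr11:113201789-113202088 (minus strand) and 3300005D01Rik at chr17:5798407-5798706 (plus strand).
A330074K22Rik promoter: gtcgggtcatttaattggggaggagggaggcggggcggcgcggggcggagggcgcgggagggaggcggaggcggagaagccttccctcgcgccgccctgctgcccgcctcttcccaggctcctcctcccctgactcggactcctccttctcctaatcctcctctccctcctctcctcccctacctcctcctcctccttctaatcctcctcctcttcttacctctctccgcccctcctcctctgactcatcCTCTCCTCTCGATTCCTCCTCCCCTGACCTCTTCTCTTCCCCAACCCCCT
2610035D17Rik promoter: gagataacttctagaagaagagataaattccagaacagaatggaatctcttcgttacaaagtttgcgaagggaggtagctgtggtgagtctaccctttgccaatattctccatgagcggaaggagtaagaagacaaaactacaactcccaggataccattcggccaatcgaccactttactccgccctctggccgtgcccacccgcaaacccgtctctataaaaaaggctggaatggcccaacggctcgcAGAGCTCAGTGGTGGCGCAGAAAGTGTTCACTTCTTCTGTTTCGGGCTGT
3300005D01Rik promoter: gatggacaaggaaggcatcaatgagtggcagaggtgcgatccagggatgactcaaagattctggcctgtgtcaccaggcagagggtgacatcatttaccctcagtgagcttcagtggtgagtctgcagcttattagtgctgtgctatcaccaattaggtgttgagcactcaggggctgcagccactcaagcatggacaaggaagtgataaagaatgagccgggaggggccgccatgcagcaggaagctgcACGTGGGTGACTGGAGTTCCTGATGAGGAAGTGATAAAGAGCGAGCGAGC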

How the data were processed

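RNA was poly(A)-enriched and sequenced for 18 libraries. Per the labels and the study's methods, the authors aligned reads with HISAT2 to mm10 and deposited raw counts per gene with a gene type column. Which program, annotation release and strand option produced the counts was not stated in the labels or methods read here. Groups came from the labels, and every sample column was matched by name. Counts were tested in edgeR 4.0.16 (R 4.3.3): filterByExpr with a minimum count of 10, TMM scaling, and glmQLFit (robust) on all 6 groups without a replicate term, which left 14317 genes. Calls needed a Benjamini-Hochberg adjusted p under 0.05 and a log2 fold change beyond 1. CPM used TMM-scaled library sizes, and a standard error is the log2 fold change over the square root of F. The scripts were tested on simulated data. Coordinates and transcripts came from GENCODE M21, with which 67 of 68 members shared coordinates, and promoters and microRNAs from RefSeq GRCm38.p6.

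The members and gene lists were chosen with earlier results of these data known. Members were named if they stood in a list of known roles, were among the 8 with the highest level per length, or were among the 3 largest rises or falls called in a comparison with groups that did not overlap. Alternatives were DESeq2 1.42.0, its size factors, other filters, thresholds and count minimums, a replicate block, only the groups compared, and each library left out. Precision depended on total counts, 15576685 to 42005596 per library, and on the spread between libraries of a group. The chi-square per degree of freedom of a replicate pair measured differences beyond counting noise. It was 13.1 and 14.7 for pairs with WT uninduced replicate 1 and 8.2 for the other pair. For pairs with clone 1 stimulated replicate 1 it was 12.0 and 11.1, and 6.9 for the other pair. In the remaining groups it ran from 3.1 to 7.1. Other tools were limma 3.58.1, Python 3.11.15, pandas 2.3.3 and matplotlib 3.10.9.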

Additional observations from a re-analysis of the deposited data

Results flagged for a closer look

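The response to stimulation differed between a clone and WT, by an interaction term in the edgeR fit with adjusted p under 0.05 and a log2 difference beyond 1, for 10 members in clone 1 and 13 in clone 2. In clone 1 the log2 difference from the WT response was 2.25 for AC130815.2, 2.20 for Gm28875, 1.82 for A330074K22Rik, 1.52 for C130083M11Rik, 1.36 for Neat1, 1.335 for 2610035D17Rik, 1.2 for Gm26617, 1.11 for Gm17586, -1.15 for Gm32618 and -2.12 for Gm3716. In clone 2 it was 2.79 for Neat1, 1.90 for Malat1, 1.87 for A330074K22Rik, 1.81 for C130083M11Rik, 1.54 for Dubr, 1.42 for AC130815.2, 1.39 for Gm28875, 1.36 for Gm47469, 1.2 for 1700096K18Rik, 1.12 for 5031425E22Rik, 1.06 for 2310001H17Rik, 1.04 for 2610035D17Rik and -1.17 for Gm32618. Both sets rest on the same WT libraries. Gm26617 and Gm47469 share 50.1% and 48.4% of their longest transcript, at 95% identity or more, with another gene. Gm47469 and 2310001H17Rik reached the count minimum only through WT uninduced libraries, and C130083M11Rik only through stimulated clone 1 libraries. Differences of these members that use the group that admitted them are given as a description.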

How the results depend on the processing

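Of 116 calls of named members, DESeq2, DESeq2 size factors in edgeR and a filter of 1 CPM in 3 libraries each kept 116, no filter kept 113 (the exceptions being A330074K22Rik in uninduced clone 2 against WT at -0.999, and the clone 2 response differences of 2610035D17Rik at 0.97 and 2310001H17Rik at 0.99), and fitting only the groups compared kept 115. Over the fits that each left out 1 of the 18 libraries, the named calls were checked 804 times. The call was kept in 756 of these checks, lost in 48 and reversed in 0. Of the 116 named calls, 23 were lost or changed in sign under at least 1 setting. The numbers of members called depended on the thresholds, given here in the order WT, clone 1 and clone 2 response, clone 1 and clone 2 against WT uninduced, clone 1 and clone 2 against WT stimulated, clone 1 against clone 2 uninduced and stimulated, and response difference of clone 1 and clone 2. With all the data they were 20, 13, 17, 14, 5, 24, 13, 11, 9, 10 and 13. With no fold threshold they were 39, 39, 41, 35, 30, 40, 29, 32, 32, 20 and 21, and with the fold change tested against the threshold 12, 6, 6, 2, 2, 9, 9, 3, 3, 3 and 2. With a minimum of 500 summed counts they were 33, 29, 27, 26, 11, 41, 26, 20, 24, 13 and 15, and with 2000 they were 10, 7, 8, 3, 0, 13, 7, 8, 6, 5 and 7. For the 0 among these, edgeR gave 19 of 35 members at an unadjusted p under 0.05 and DESeq2 called 0. Leaving out each library gave 18 to 23, 13 to 13, 16 to 18, 11 to 15, 4 to 7, 22 to 27, 11 to 14, 9 to 13, 8 to 12, 8 to 14 and 11 to 14. Counting only neighbours within 100 kb took the clone 1 response from 1 to 0 neighbours called in the same direction. Leaving out the 11 members of uncertain counts, a choice made after seeing the data, gave 19, 13, 16, 13, 5, 23, 13, 9, 9, 9 and 12.

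The fit with a replicate block gave 21, 13, 17, 14, 6, 24, 13, 11, 9, 9 and 13 members, and 115 of the 116 named calls remained, the exception being Gm3716 in the response difference of clone 1 (-2.17, edgeR adjusted p = 0.0567). The replicate numbers did not pair the samples: 0 of 45 same-numbered pairs had deviations correlated above 0.1 (median r 0.0016).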
